A study of Mus musculus with 48 samples.

Results

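The genes described here encode the proteins of the cytosolic ribosome in mouse. They were chosen by name as the protein-coding genes of the GENCODE M21 annotation whose symbol is Rpl or Rps followed by a number with an optional letter, digits or a final l or x, together with Rplp0, Rplp1, Rplp2 and Rpsa. This rule gave 84 genes, of which 81 had transcripts in the tables, 49 of the large (60S) and 32 of the small (40S) subunit, out of 21435 genes in all. Rpl3l, Rpl10l and Rpl39l were not analysed here. The 81 members had 414 annotated transcripts in the tables. All 81 reached a mean of 0.1 reads per 10000 reads of a cell over the 48 cells, as did 8695 of all genes.

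A ribosome is built from 2 subunits of ribosomal RNA and ribosomal proteins, and the proteins are needed in near equal numbers because each ribosome holds a single copy of most of them. Their mRNAs are short, abundant and, in mammals, carry a tract of pyrimidines at the very 5′ end, the 5′ terminal oligopyrimidine (TOP) motif, through which the kinase mTOR and the RNA-binding protein LARP1 set their translation and stability together. Ribosomal proteins that are not built into a subunit are degraded, and Rpl5 and Rpl11 with the 5S rRNA can bind Mdm2 and so raise p53. Blood formation is known for its sensitivity to ribosomal protein dose: loss of 1 copy of RPS19 and of several other members causes Diamond-Blackfan anaemia in humans.

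The cells came one by one from wild-type embryos of C57 mice at day 10 of development (E10), out of the aorta-gonads-mesonephros (AGM) region, where the first blood stem cells of the embryo arise. The 48 cells were named AEC (24 cells) and HEC (24 cells), abbreviations commonly used for arterial and hemogenic endothelial cells, although the cell type tag of HEC cells reads hematopoietic stem cells. Cells were sorted, checked by eye for shape, picked one at a time, spiked with ERCC RNA and read as full-length cDNA on a Nanopore PromethION instrument. The labels give neither sort markers nor animals, so each group counts as a single sample, cells are not replicates, and no test or p-value is given: the SD and the range are those between the 24 cells of a group.

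Depth ran from 13261 to 8897958 recovered reads per cell, and 7 cells (6 AEC and HEC 8) had fewer than 100000. Arterial markers summed to 31.0 reads per 10000 in AEC and 9.15 in HEC cells, and hemogenic and early blood markers to 2.42 and 13.96. Summed Cdh5 and Kdr, which define endothelium, were under 1 read per 10000 in 5 cells, of which 3 were AEC and 2 HEC. Dissociation stress genes were higher in HEC cells, at 23.8 against 6.26 reads per 10000. 3 AEC cells, AEC 22, 23 and 24, were picked after the data had been seen, for the highest member sums among AEC cells. They also stood apart in a measure that leaves the members out. Over the reads of nuclear coding genes other than the members, mRNAs shorter than 750 bases made up 17.3% to 22.3% in these cells. In the other 21 AEC cells the range was 7.98% to 12.6%. The summed member level, the count of members beyond both SDs, the relation with length and several member ratios are given with and without AEC 22, 23 and 24. Other results, among them the pool shares and the shares of single transcripts, are given with these cells included.

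Ribosomal protein mRNAs took a larger share of the reads in HEC than in AEC cells. The 81 members summed to 1196 reads per 10000 in AEC cells (SD 378, n = 24 cells; lowest 667 in AEC 8, median 1117, highest 2135 in AEC 23) and to 1509 in HEC cells (SD 194, n = 24; lowest 1259.9, median 1470.4, highest 1888). All 24 HEC cells lay above the AEC median, 15 AEC cells lay below the lowest HEC cell, and 2 AEC cells lay above the highest HEC cell, so the groups overlapped. Those 15 included 11 of the 18 AEC cells with at least 100000 reads. The difference of the means, 313 reads per 10000, was larger than the SD between HEC cells and smaller than the SD between AEC cells.

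The cells that stood apart widened the AEC range. AEC 22, 23 and 24 held 1655, 2135 and 2077 reads per 10000 from members. Without them the AEC mean was 1087 (SD 241, n = 21, range 667 to 1551). The difference from HEC was then 422 and exceeded the SD of both groups. Since these cells were picked for their high member sums, leaving them out was bound to widen the difference. It is therefore no separate support for a difference. With the reads of all cells of a group pooled, members made up 11.4% of 24420196 AEC reads (exact binomial 95% interval 11.4315% to 11.4567%) and 14.9% of 34199524 HEC reads (14.8927% to 14.9166%). These intervals cover counting error only, since amplified reads are not independent molecules. Over the reads of nuclear protein-coding genes alone, AEC cells had a mean share of 14.4% (SD 4.30), and HEC cells one of 18.1% (SD 2.24). All of these are shares of reads, and a larger share of members cannot be told apart from a smaller amount of other RNA without the spike-in, which was not analysed here.

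**Figure D1:**
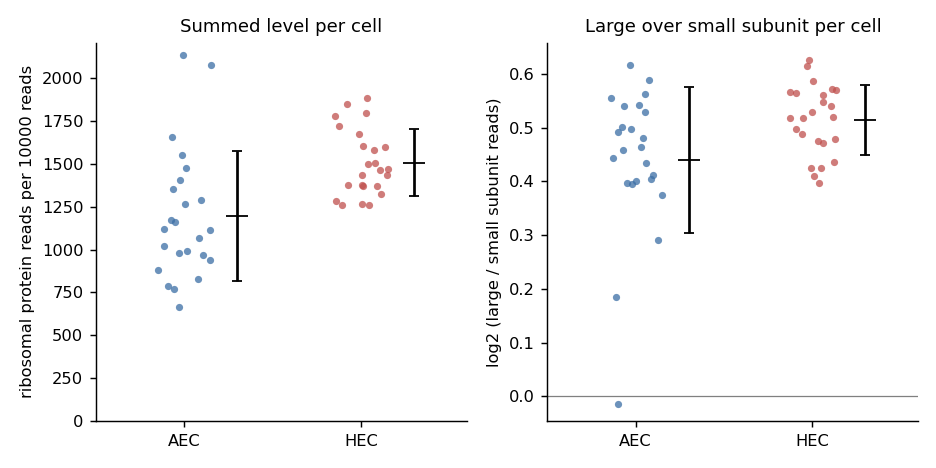
Summed reads of the 81 members per 10000 reads of the cell, and the log2 ratio of large to small subunit reads, for each of the 24 AEC and 24 HEC cells. Points are cells and bars are the mean ± SD between cells. The HEC cells sit between 1259.9 and 1888 reads per 10000, while the AEC cells spread from 667 to 2135, with AEC 22, 23 and 24 among the highest.

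Both subunits were higher in HEC cells, in nearly the same proportion. Large subunit members summed to 686 reads per 10000 (SD 210.5) in AEC against 887 (SD 114) for HEC, and small subunit members to 509 (SD 171) and 622 (SD 82.4). The log2 ratio of large to small subunit reads was 0.44 in AEC cells (SD 0.14; lowest -0.01 in AEC 7, median 0.46, highest 0.62) and 0.51 in HEC cells (SD 0.06; lowest 0.40, median 0.52, highest 0.63). 47 of the 48 cells had more large than small subunit reads, and the exception, AEC 7, was the shallowest cell. The difference between the groups, 0.07 on the log2 scale, was within the SD between AEC cells, although 19 HEC cells lay above the AEC median. The balance of the subunits was thus not separable between AEC and HEC at this spread.

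Member share and other short mRNA went together across cells, in AEC when the cells that stood apart were included. Spearman's rho was taken between the member share and the share of mRNAs under 750 bases in the reads of other nuclear coding genes. It was 0.41 over the 24 AEC cells (Pearson's r 0.77) and 0.48 over the 24 HEC cells (r 0.34). Over the 21 AEC cells without AEC 22, 23 and 24, rho was 0.11 and r 0.05. With recovered reads rho was 0.12 in AEC and -0.26 in HEC, with the rRNA share -0.20 and -0.23, and with the summed stress genes -0.13 and -0.19. The member share is taken over all reads of a cell, and the short mRNA share over its reads from other nuclear coding genes. Both come from the same library, so these values describe the libraries. The part of short mRNA or of stress genes in the difference between the groups was not tested.

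Taken gene by gene, most members were higher in HEC, by a small amount. The log2 ratio of the HEC mean to the AEC mean (0.1 added to each) was above 0 for 72 of 81 members (88.9%), for 44 of 49 large and 28 of 32 small subunit members, against 52.4% of the 8695 genes. The median log2 ratio was 0.27 over the members, 0.30 for the large and 0.25 for the small subunit, against 0.04 over all genes and 0.02 over the 195 other genes with a mean of at least 5 reads per 10000. At least 1.5-fold higher in HEC were 16 members (19.8%), close to the 19.3% of all genes, so this count does not set the members apart. At least 1.5-fold lower was 1 member (1.23%), Rps27, against 19.3% of all genes. Past 2-fold were Rpl7l1 upward (1.23%, against 6.35% of all genes) and Rps27 downward (1.23%, against 9.4%).

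The spread between cells was small for members, which bears on how many stood out from it. For 14 members (17.3%) the HEC mean exceeded the AEC mean by more than the SD of both groups, against 1.82% of all genes; this compares means with the spread of cells and is not a test. They were 10 of the large subunit, among them Rpl3, Rpl4, Rpl6, Rpl7a, Rpl13, Rpl13a, Rpl19, Rpl32 and Rplp0, and 4 of the small subunit (Rps2, Rps3, Rps3a1 and Rps12). No member was lower in HEC by more than both SDs, against 0.046% of all genes, and for none of the 81 did the 2 groups of cells fully separate. Leaving out AEC 23 alone gave 22 such members, and leaving out AEC 22, 23 and 24, picked for their high member sums, gave 31. For genes averaging 5 or more reads per 10000, the median coefficient of variation between cells was 52.9% in AEC and 23.1% in HEC over 76 members, against 66.8% and 34.9% over the 195 other genes. It was smaller in HEC than in AEC for 79 of 81 members and for 93.8% of those other genes.

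How far the members were higher depended on the reference used for scaling. Scaled by median-of-ratios factors, which take as their reference the 855 genes above 0 in every cell, 78 of them members, the median log2 ratio of all genes moved by -0.23 to -0.19 and that of the members to -0.075. Relative to the median of all genes the members stood 0.23 higher under the main scaling and 0.12 higher under this one. The number of members above the median of all genes was 71 under the first and 55 under the second, and the number above 0 was 72 and 35. At least 1.5-fold higher and lower were 16 and 1 members under the first and 3 and 4 under the second. Every statement that a member was higher in HEC refers to its share of reads.

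**Figure D2:**
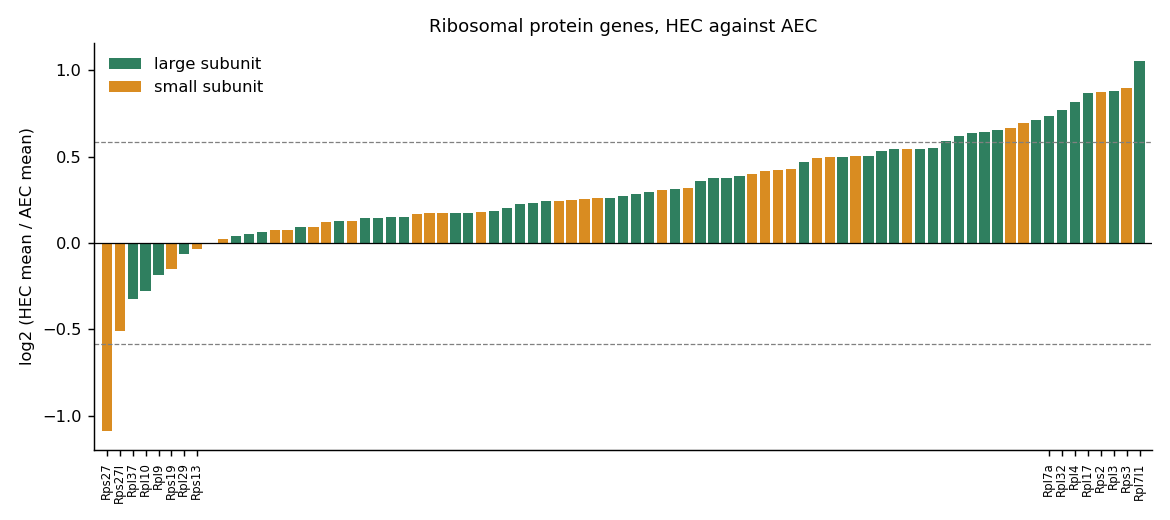
Log2 ratio of the HEC mean to the AEC mean for each of the 81 members in order of the ratio, coloured by subunit, with the 8 lowest and 8 highest named. Dashed lines mark 1.5-fold either way. Bars of 72 of the 81 lie above 0, with Rpl7l1 (1.05) at the top and Rps27 (-1.09) at the bottom.

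Apart from the scarce Rpl7l1, described below, the highest ratios were those of core proteins of both subunits. Rps3 (chr7:99477896-99483738, minus strand, build mm10), a protein at the mRNA entry site of the 40S subunit, was at 12.3 reads per 10000 in AEC cells (SD 4.89; lowest 4.998, median 11.6, highest 23.8) and 23.03 in HEC cells (SD 2.89; 17.3, 22.7, 27.3), a log2 ratio of 0.90. 22 of the 24 AEC cells lay below the lowest HEC cell, the nearest to a full separation among the members described here. Rps2 (chr17:24718116-24721929, plus strand), its neighbour at the mRNA entry channel, was at 18.8 in AEC (SD 7.32; 7.39, 19.4, 35.1) and 34.6 in HEC (SD 7.53; 21.01, 35.8, 52.0), a log2 ratio of 0.88. All 24 HEC cells lay above the AEC median for both genes, and 15 AEC cells lay below the lowest HEC cell for Rps2.

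In the large subunit, Rpl3, Rpl4 and Rpl32 were among the highest. Rpl3 (chr15:80077791-80091868, minus strand), which reaches towards the peptidyl transferase centre, was at 10.2 reads per 10000 in AEC (SD 4.46; 3.75, 9.82, 21.8) and 18.7 in HEC (SD 3.27; 13.4, 19.1, 25.9), a log2 ratio of 0.88. Rpl4 (chr9:64173375-64178666, plus strand), which lines the tunnel through which the new peptide leaves, was at 13.3 in AEC (SD 5.20; 2.23, 13.5, 27.8) and 23.5 in HEC (SD 4.33; 14.9, 22.9, 32.3), a log2 ratio of 0.82. For both genes every HEC cell lay above the AEC median, and 21 and 15 AEC cells lay below the lowest HEC cell. Rpl32, a further 60S protein and one of the most abundant members, was at 24.2 (SD 9.01; 9.97, 21.97, 48.3) and 41.3 (SD 7.18; 26.4, 43.3, 51.6), a log2 ratio of 0.77. Without AEC 22, 23 and 24 the log2 ratios were 0.83 for Rps3, 0.77 for Rps2, 0.80 for Rpl3, 0.72 for Rpl4 and 0.88 for Rpl32.

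The stalk of the large subunit, which recruits the translation factors, had members of high and of low ratio. Rplp0, its base, was at 27.1 reads per 10000 in AEC (SD 11.9; 7.01, 25.7, 60.2) and 42.6 in HEC (SD 6.89; 34.0, 41.5, 59.2), a log2 ratio of 0.65, with 18 AEC cells below the lowest HEC cell. Rpl12, which sits beside it, was at 3.74 (SD 2.26) and 5.86 (SD 1.49), a log2 ratio of 0.64. The acidic proteins Rplp1 and Rplp2, which hang from Rplp0 as dimers, had log2 ratios of 0.04 and 0.15. Without AEC 22, 23 and 24 the ratios were 0.25 for Rplp1, 0.41 for Rplp2 and 0.56 for Rplp0, so the stalk was then less uneven. With all cells, the Rplp1 and Rplp2 groups overlapped widely, with 15 and 21 HEC cells above the AEC median. Other members past 1.5-fold were Rpl7a (log2 ratio 0.73), Rps12 (0.70), Rps3a1 (0.67), Rpl6 (0.64), Rpl38 (0.59), Rpl5 (0.71), Rpl17 (0.87) and Rpl7l1 (1.05).

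For 2 of these the ratio rested on few cells or few reads. Rpl17, which stands at the mouth of the exit tunnel, had HEC values of 9.60 at the lowest, 15.4 at the median and 72.3 in HEC 16, against 3.01, 8.69 and 19.7 in AEC, and its log2 ratio without HEC 16 was 0.66. Rpl7l1 (chr17:46773907-46782672, minus strand), a nucleolar relative of Rpl7 related to a ribosome assembly factor of yeast, was the least abundant member, at 0.52 reads per 10000 in AEC (SD 0.70; 0, 0.18, 2.82) and 1.19 in HEC (SD 0.60; 0.12, 1.06, 2.59). It was above 0 in 21 AEC cells and all 24 HEC cells, and 23 HEC cells lay above the AEC median. Rpl5 and Rpl9 were above 0 in 23 and 22 AEC cells, and the other 78 members in every cell.

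A few members known from disease or signalling were looked at by name, chosen after their values were seen. Rps19, the gene most often mutated in Diamond-Blackfan anaemia, was at 37.3 reads per 10000 in AEC (SD 25.8; 11.8, 28.6, 120.4 in AEC 12) and 33.6 in HEC (SD 7.35; 18.9, 34.4, 47.9), a log2 ratio of -0.15, and of 0.08 without AEC 22, 23 and 24. Rps14, whose loss underlies the anaemia of the human 5q- syndrome, had a log2 ratio of 0.08, and of 0.34 without AEC 22, 23 and 24, with 1 high HEC cell (113 in HEC 11, median 24.2). Rps6, the substrate of the S6 kinases, had a log2 ratio of 0.42 and Rpl11, the partner of Rpl5 in binding Mdm2, one of 0.23. Rpl5, also a Diamond-Blackfan gene, stood higher, as given above, but with few reads of its own. For Rps19, Rps14, Rps6 and Rpl11 the difference of the means was within the SD between AEC cells.

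The 8 lowest ratios were those of Rps27 (-1.09), Rps27l (-0.51), Rpl37 (-0.33), Rpl10 (-0.28), Rpl9 (-0.19), Rps19 (-0.15), Rpl29 (-0.06) and Rps13 (-0.04). Rps27, a zinc finger protein of the 40S subunit, was at 7.87 reads per 10000 in AEC (SD 15.2; 0.75, 3.49, 76.2 in AEC 7) and 3.64 in HEC (SD 1.29; 2.17, 3.35, 8.15). The group medians were nearly equal, and without the shallow cell AEC 7 the log2 ratio was -0.42, short of 1.5-fold, so that no member was then 1.5-fold lower. Without AEC 22, 23 and 24 the ratios were -0.01 for Rpl37, -0.02 for Rpl10, 0.16 for Rpl29 and 0.31 for Rps13. Among all 81 members, 41 had their highest AEC value in AEC 23 or AEC 24.

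Although their proteins are used in near equal numbers, the mRNAs of the members differed widely in level. Over the 48 cells the highest means included those of Rpl41 (52.6 reads per 10000), Rpl13 (37.4), Rps19 (35.4), Rplp0 (34.8) and Rpl32 (32.7), and the lowest those of Rpl7l1 (0.85), Rpl9 (2.26), Rpl5 (3.59), Rps13 (3.96), Rpl12 (4.80) and Rpl36al (5.35). Per kilobase of transcript the order was led by Rpl41 (92.4 reads per 10000 and kilobase), Rpl32 (62.6), Rplp1 (55.5), Rps28 (48.7), Rpl13 (47.9) and Rps19 (46.2). Rpl41 encodes the smallest member, a basic peptide of 75 coding bases. The median member stood at 13.7 reads per 10000 in AEC and 17.4 in HEC cells.

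The low level of several members went with reads assigned elsewhere in the genome. Ribosomal protein genes have left many processed copies, made from spliced mRNA, and 160 transcripts of 156 other genes matched the coding sequence of 60 members at 98% identity or more over at least 95% of its length. Most had next to no reads, and 16 copy genes had a mean of at least 0.1. For 5 members the copies held more reads than the member itself. Gm15500 on chromosome 7, which is identical to Rpl5 over its 891 coding bases, had 19.2 reads per 10000 in AEC (SD 13.4) and 17.5 in HEC (SD 4.74), against 2.69 (SD 1.82) and 4.48 (SD 1.82) for Rpl5. Rps27rt on chromosome 9, identical to Rps27 over 252 bases, had 29.1 (SD 23.3) and 21.7 (SD 5.27), and Rpl10-ps3 on the same chromosome, identical to Rpl10 over 642 bases, had 14.8 (SD 6.39) and 15.8 (SD 4.25).

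In the other 2, the copy differed from the member by a base or a pair of bases. Rps13-ps1 on chromosome 8, with 2 mismatches in 453 bases, had 5.999 (SD 3.11) reads per 10000 in AEC and 6.68 (SD 2.21) in HEC. Rpl9-ps6 on chromosome 19 differed from Rpl9 (chromosome 5) by 1 substitution in 576 coding bases, G266A, counted from 1 at the first base of the start codon, with the base of Rpl9 written before the position. It had 9.79 (SD 4.34) and 13.9 (SD 3.57), against 2.41 (SD 1.68) and 2.11 (SD 0.73) for Rpl9. The pair is shown because a single letter is all that tells its reads apart within the coding sequence; the lines give the GENCODE M21 coding sequence around it, 5′ to 3′, with the differing base in capitals.
Rpl9: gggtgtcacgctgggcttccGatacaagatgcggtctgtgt
Rpl9-ps6: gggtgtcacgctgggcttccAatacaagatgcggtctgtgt
Whether such reads came from the member or from the copy cannot be settled from identical coding sequence, and the labels do not state how the authors' processing divided them.

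Adding the copies to their member gave other ratios for these genes. The log2 ratio with copies was 0.01 for Rpl5 (0.71 alone), 0.39 for Rpl9 (-0.19 alone), -0.55 for Rps27 (-1.09 alone), -0.02 for Rpl10 (-0.28 alone) and 0.08 for Rps13 (-0.04 alone). Rpl12 was at 0.74, against 0.64 alone. The spread of levels narrowed as well. Over 77 members, leaving out the 4 paralogs described below, the highest mean was 23.3 times the lowest for the members alone and 9.30 times with copies, when Rpl22 (6.17 reads per 10000) was lowest and Rpl41 (57.4) highest. Between the 10th and the 90th percentile the ratio was 3.57 alone and 2.99 with copies. For Rpl5, Rpl9, Rps13, Rps27 and Rpl10 the level and the ratio are therefore uncertain, and so are pool and isoform shares taken from their reads.

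**Figure D3:**
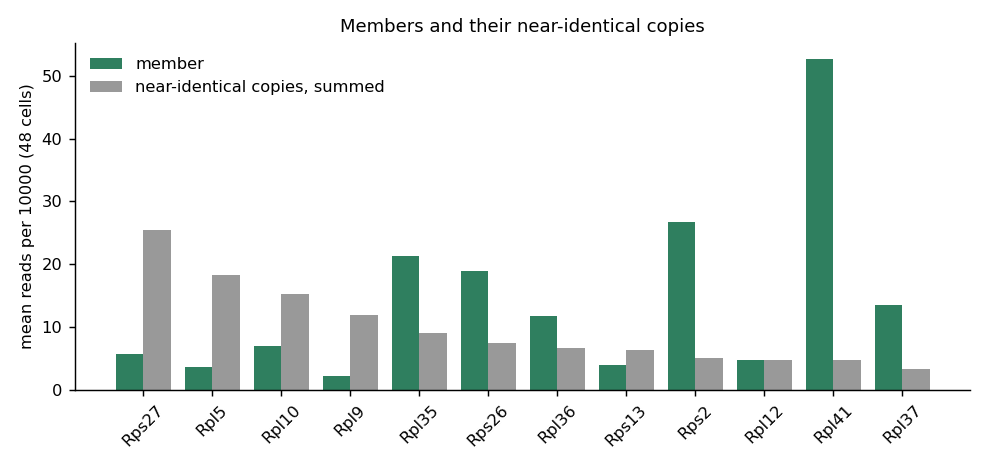
Mean reads per 10000 over all 48 cells for 12 members with the most reads in near-identical copies (green) and for their copies summed (grey), with no error bars. Grey exceeds green for Rps27, Rpl5, Rpl10, Rpl9 and Rps13.

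Set against the pool of ribosomal protein reads alone, so that the general difference cancels, most members had similar shares in both groups. The pool share was larger in HEC for 36 of 81 members. It was at least 1.5-fold higher for 1, Rpl7l1 (log2 ratio of shares 0.72), and at least 1.5-fold lower for 4, Rps27 (-1.50), Rps27l (-0.92), Rpl37 (-0.60) and Rpl9 (-0.59). The next largest were Rps3, from 1.09% of the pool in AEC to 1.55% in HEC (0.51), Rpl17 (0.50), Rpl3 from 0.90% to 1.26% (0.48), Rpl32 from 2.03% to 2.74% (0.44) and Rps2 from 1.71% to 2.30% (0.43). The next lowest were Rpl10 (-0.58) and Rps19, from 2.98% to 2.25% (-0.40). These shares use the reads of the members alone, while Rps27, Rpl37, Rpl9 and Rpl10 have near-identical copies with reads. With copies added, the log2 ratios of their levels were -0.55, -0.15, 0.39 and -0.02. For Rps27 the AEC mean level also rested in part on the shallow cell AEC 7. In the median member the level followed the rest of the pool across cells with a Spearman's rho of 0.58 in AEC and 0.55 in HEC, values that share the denominator of each cell.

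The members with the higher ratios tended to be the longer ones. Over the 81 members, the log2 ratio had a Pearson's r of 0.39 and a Spearman's rho of 0.41 with the length of the transcripts weighted by their level, and of 0.49 and 0.45 with the coding length; genes are not independent replicates, and all share the same 48 libraries. The 27 members of 75 to 390 coding bases had a median log2 ratio of 0.17, the 27 of 396 to 564 bases one of 0.23, and the 27 of 576 to 1257 bases one of 0.53. In the same order, 1, 5 and 10 of them were at least 1.5-fold higher in HEC. Over all 8695 genes the relation with weighted length was flat (r -0.02, rho -0.01), but from 500 to 2000 bases the medians of other genes were also higher at greater length. Their median log2 ratio was -0.24 at 500 to 750 bases, -0.10 at 750 to 1000, 0.03 at 1000 to 1500 and 0.09 at 1500 to 2000. The 76 other genes of up to 500 bases did not follow this order, with a median of -0.01. The relation among members rested in good part on the cells rich in short mRNA: without AEC 22, 23 and 24, r with coding length was 0.23 and rho 0.15.

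**Figure D4:**
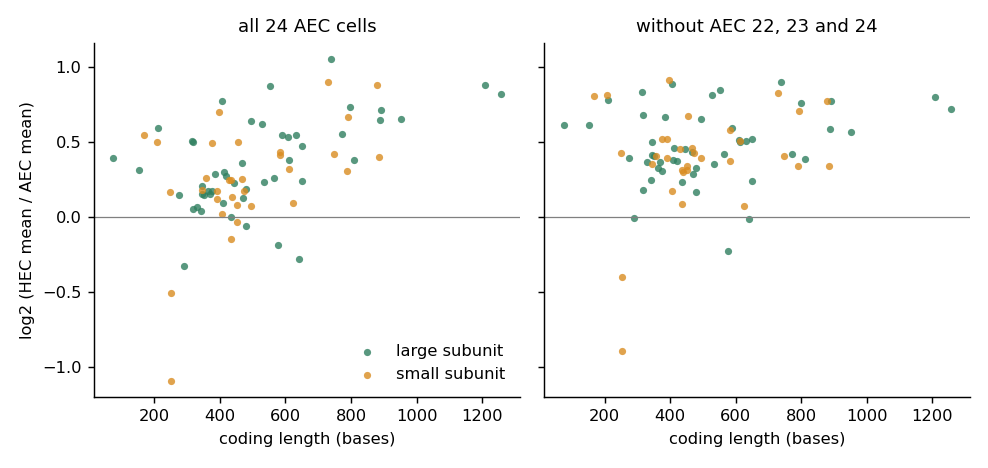
Log2 ratio of the HEC mean to the AEC mean against coding length in bases for each of the 81 members, with all 24 AEC cells (left) and without AEC 22, 23 and 24 (right). The upward slope on the left, r 0.49, is flatter on the right, r 0.23, where the short members stand higher.

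Of the pairs of a member and its paralog, 4 could be compared. Rpl22l1 and Rpl22, which have opposed roles in the emergence of blood stem cells in zebrafish, share 264 of 360 aligned coding bases (73.3%). Rpl22l1 made up 63.1% of the reads of the pair in AEC cells (SD 14.7; 28.97, 61.4, 94.4) and 61.7% in HEC cells (SD 7.92; 46.9, 61.9, 75.7). Rps27l, a p53 target gene in human cells, shares 76.2% of the coding bases of Rps27 and made up 59.6% (SD 20.1) and 55.5% (SD 15.2), or 21.6% (SD 12.05) and 16.2% (SD 5.84) with copies counted. Rpl7l1, with 64.8% identity to Rpl7, made up 3.90% (SD 5.54) and 6.45% (SD 3.13). Rpl36al, with 87.7% identity to Rpl36a, made up 37.4% (SD 16.8) and 28.9% (SD 6.43). In all 4 pairs the difference between AEC and HEC was within the SD between AEC cells.

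Isoform shares were steady in most members. A transcript's share was its part of the reads of its gene, averaged over cells with at least 20 reads of the gene, and 77 members had at least 10 such cells in each group. The leading transcript held at least 90% in both groups in 41 members. A transcript differed by 10 percentage points or more in 4 of 77 (5.19%), Rpl35a, Rpl34, Rps27 and Rpl27, against 37.1% of 2247 genes. It differed by more than the SD of both groups in 4 (5.19%), Rpl34, Rps27, Rpl36a and Rpl38, against 1.82% of genes. The 2247 genes were not matched to the members in level, and a share taken from few reads varies more by counting alone. Neither pair of percentages therefore compares like with like. With transcripts of the same coding sequence merged, 1 of 72 members differed by 10 points, Rps27, and the leading coding product held a median of 98.6% in AEC and 98.3% in HEC. So the 10-point differences in Rpl35a, Rpl34 and Rpl27 were between mRNAs for the same protein. Other differences remained after merging. Rps27-201 was at 88.1% in AEC and 75.5% in HEC, and retained-intron transcripts of Rpl36a at 4.77% and 13.2%. Each of these differed beyond the SD of both groups. Rps27 itself held 21.3% in AEC and 14.4% in HEC of the mean reads of the gene with its copies. How reads were divided between them is not known, so the isoform shares of Rps27 are uncertain. Rpl10a-201 was at 82.4% and 74.2%, within the SD between AEC cells.

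Rpl34, a 60S protein, showed the clearest difference. Rpl34-201 was at 16.9% in AEC cells (SD 9.93, n = 22; lowest 3.33, median 17.1, highest 36.1) and 30.5% in HEC cells (SD 7.83, n = 24; 17.9, 29.2, 50.1), and all 24 HEC cells lay above the AEC median. In AEC 22, 23 and 24 the share of Rpl34-201 was 4.12%, 4.60% and 3.33%, among the lowest of the AEC cells. Rpl34-202 was correspondingly lower in HEC over all cells used, at 82.0% (SD 10.99) and 67.5% (SD 7.70). Both code for the same 351 bases and differ in the first exon, which is 217 bases in Rpl34-201 (chr3:130730121-130730337, minus strand) and 81 bases in Rpl34-202 (chr3:130730318-130730398), with starts 61 bases apart. The 30 bases around each annotated start are shown because both hold a pyrimidine tract; they are RefSeq sequence of GRCm38.p6, 5′ to 3′, capitals mark the longest run of C or T reaching into the 20 bases on either side of the start, and the 16th base is the start itself.
Rpl34-202 (chr3:130730384-130730413, minus strand): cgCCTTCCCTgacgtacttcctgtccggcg
Rpl34-201 (chr3:130730323-130730352, minus strand): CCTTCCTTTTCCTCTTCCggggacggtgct
The run is 8 bases in Rpl34-202 and 20 in Rpl34-201, where it continues upstream of the stretch shown.

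The other large differences were of several kinds. Rpl35a has several first exons in front of the same 330 coding bases, and Rpl35a-201 was at 66.1% in AEC (SD 18.2) and 50.9% in HEC (SD 9.08), while Rpl35a-205 was at 26.1% (SD 16.99) and 34.1% (SD 8.09) and Rpl35a-204 at 5.40% (SD 10.7) and 9.90% (SD 5.16). Rpl27-202, which keeps the first intron in front of the coding sequence, was at 11.5% (SD 11.3; 0.50, 7.85, 38.4) and 22.4% (SD 11.1; 5.83, 22.9, 52.2), with 23 HEC cells above the AEC median. Rps27-201 was at 88.1% (SD 12.2, n = 19) and 75.5% (SD 12.05, n = 24), and the retained-intron transcript Rps27-207 at 0.87% (SD 1.85) and 9.04% (SD 10.2). Smaller in size but apart from the spread were Rpl36a-206, with a retained intron, at 4.74% (SD 4.72; 0, 3.24, 20.5) and 12.6% (SD 4.64; 6.15, 11.9, 22.3), and Rpl38-203, at 2.07% (SD 1.68) and 3.998% (SD 1.20). For both, every HEC cell lay above the AEC median. The rest of the largest differences included those in Rpl15 (Rpl15-201, 30.8% and 39.4%), Rpl10a (Rpl10a-201, 82.4% and 74.2%), Rps20 (Rps20-201, 14.9% and 22.6%) and Rpl22l1, each within the SD between AEC cells.

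Rpl22l1 has 2 main coding transcripts that differ at an exon edge, shown here because the bases add a codon and keep the reading frame. Rpl22l1-206 lacks 3 bases that open the second exon of Rpl22l1-201. Rpl22l1-206 was at 76.2% (SD 15.8) and 69.7% (SD 7.04), and Rpl22l1-201 at 20.4% (SD 11.4) and 21.8% (SD 6.29). Rpl22l1-204, a transcript annotated for nonsense-mediated decay, was at 1.84% (SD 6.51) and 6.92% (SD 5.27), so that most of the lower share of Rpl22l1-206 was matched there and not in Rpl22l1-201. In the GENCODE M21 transcripts below, capitals mark the bases that only Rpl22l1-201 holds.
Rpl22l1-201 (chr3:28806500-28806517, plus strand, from the exon start): atggcgccgCAGaaagacaagaagcct
Rpl22l1-206: atggcgccgaaagacaagaagcct

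Rps24, the member best known for splicing that changes the protein, did not differ beyond its spread. Its coding sequence ends in 1 of several ways after the same exon (chr14, plus strand, the shared bases at 24493482-24493493), and the lines show the coding ends, with the bases after the shared exon in capitals up to and including the stop codon.
Rps24-202: gctggcaaaaagTGA
Rps24-205: gctggcaaaaagAAATGA
Rps24-210: gctggcaaaaagCCAAAGGAGTAG
Rps24-202 was at 78.5% in AEC (SD 11.4; 46.4, 81.4, 93.8) and 78.7% in HEC (SD 6.20; 68.8, 78.7, 91.9). Rps24-210 was at 17.2% (SD 10.2) and 13.9% (SD 5.58), and Rps24-205 at 1.96% (SD 2.71) and 4.69% (SD 3.83), with 20 HEC cells above the AEC median for the last.

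**Figure D5:**
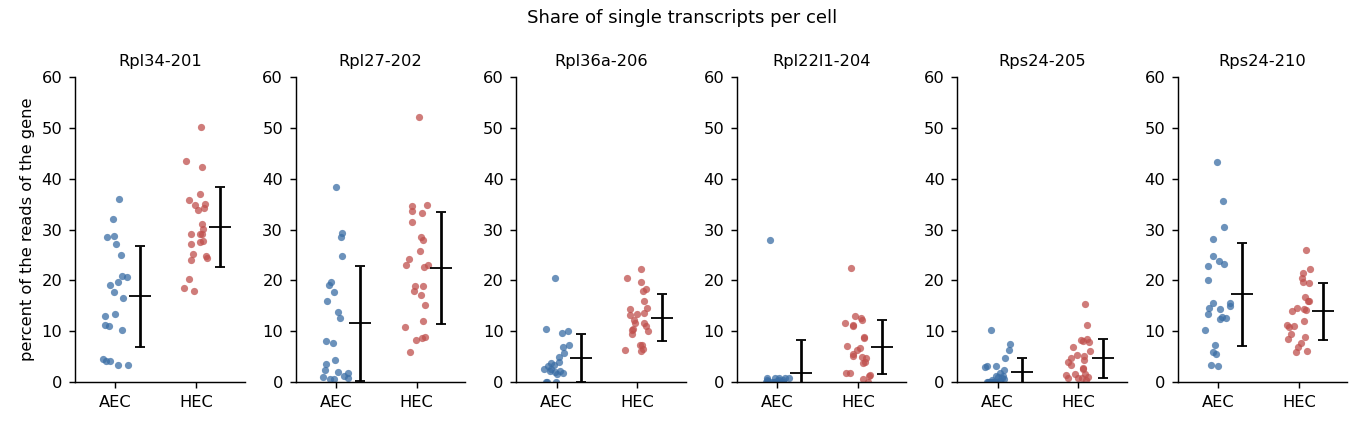
Share of the reads of its gene, in percent, for selected member transcripts in each AEC and HEC cell with at least 20 reads of the gene. Points are cells and bars are the mean ± SD. Rpl34-201 and Rpl36a-206 sit higher in HEC cells by more than the SD of both groups. Rpl27-202 and Rpl22l1-204 have higher means in HEC cells, within the SD between AEC cells. The Rps24 transcripts also differ less than their spread, and the groups overlap in each.

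Some of these isoforms, such as Rpl27-202, Rpl36a-206, Rps20-201 and Rps27-207, reach into the first intron, while those of Rpl34 and Rps24 described above do not. Transcripts were grouped, after their values had been seen, by whether an exon runs from at least 50 bases of the first intron of the leading transcript into its second exon. The share of such transcripts was higher in HEC in 40 of 52 members that have them (76.9%), against 61.1% of 445 genes. Of those with a mean share of at least 1%, 27 of 32 members (84.4%) and 144 of 262 genes of all kinds (55%) were higher in HEC. For transcripts reaching into later introns the counts were 31 of 54 members (57.4%) and 48.7% of 1114 genes. Rpl28 (12.3% and 15.5%), Rps27a, which is made as a fusion with ubiquitin (10.9% and 16.2%), Rpl30 (22.1% and 26.9%) and Rpl37a (1.47% and 3.84%) were further examples.

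Summed per cell, the difference was modest. First-intron transcripts made up 2.65% of member reads in AEC cells (SD 1.29; 1.12, 2.27, 5.11) and 3.41% in HEC cells (SD 0.73; 1.54, 3.34, 4.98), within the SD between AEC cells, although 23 HEC cells lay above the AEC median. The AEC mean was 2.81% without AEC 22, 23 and 24. In other genes the share was 0.82% and 0.84%, and for later introns members stood at 1.31% and 1.24%. By annotated class, transcripts marked for nonsense-mediated decay made up 1.29% (SD 0.57) and 1.61% (SD 0.46) of member reads, and 3.03% and 2.37% of the reads of other coding genes. The leading transcript had a smaller share in HEC in 55 of 77 members, against 51.3% of genes.

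The promoters of the members were rich in the pyrimidine runs that give TOP mRNAs their start. For 60 of the 81 members a RefSeq promoter (GRCm38.p6, 250 bases before to 50 after a start) began within 500 bases of the start of the main transcript. A run of at least 8 C or T on the coding strand, reaching into the 20 bases on either side of the start, was present in 29 of 60 (48.3%). It was present in 19.1% of all 6204 promoters used and in 22.1% of 68 promoters of mitochondrial ribosomal proteins. The 6204 were matched in the same way for genes with a mean of at least 0.1, members included. A C at the annotated start followed by at least 4 C or T was found in 12 of 60, against 2.47% of all. On either strand of the 300 bases, CTTCCG was found in 66.7% of members and 37.6% of all promoters, CTTTCC in 50% and 27.3%, and AAGATGG in 15% and 8.48%; the first 2 can overlap each other and the runs. A match is a description of letters and not a site in use.

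Members with and without the run had similar ratios. The 29 members with it had a median log2 ratio of 0.30 and the 31 without it one of 0.25. 3 starts show the range, in the same layout as those of Rpl34 and with the longest run in capitals where it reaches 8: that of Rpl4, with one of the highest ratios, that of Rpl22l1, and that of Rpl7l1, which has the highest ratio and no run longer than 3 bases reaching into the 20 bases on either side of its start.
Rpl4-201 (chr9:64173372-64173401, plus strand): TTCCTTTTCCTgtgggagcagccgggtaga
Rpl22l1-206 (chr3:28805493-28805522, plus strand): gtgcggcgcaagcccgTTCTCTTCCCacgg
Rpl7l1-201 (chr17:46782642-46782671, minus strand): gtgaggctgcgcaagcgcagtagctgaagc
The RefSeq start lies 12 bases from the GENCODE start for Rpl4 and 39 for Rpl22l1, and at the same base for Rpl7l1.

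Genes around the ribosome divided in the same comparison. Ribosome components outside the naming rule that were higher in HEC were Fau, which carries Rps30 (log2 ratio 0.21), and Rack1, a signalling scaffold on the 40S head (9.58, SD 3.83, and 16.3, SD 4.56, reads per 10000; 0.76). The counts that follow stand against 52.4% of all genes higher in HEC and a median log2 ratio of 0.04. Of 22 other mRNAs known to carry a TOP motif, 20 were higher in HEC, with a median log2 ratio of 0.47 and a sum of 181 (SD 46.5) for AEC against 254 (SD 30.1) for HEC. Among them were the elongation factors Eef1a1 (55.3, SD 17.9, and 76.6, SD 10.02; 0.47) and Eef1g (5.88, SD 2.65, and 11.8, SD 4.04; 0.99). Vim, an intermediate filament gene, and Eif3l were lower (-0.89 and -0.25).

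Mitochondrial ribosomal proteins served as a contrast of like function. Of 78, 39 were higher in HEC, the median log2 ratio was 0.00, and they summed to 67.8 reads per 10000 (SD 20.3) for AEC against 64.6 (SD 11.98) for HEC. Ribosome biogenesis factors were higher in HEC for 17 of 18 genes with a median log2 ratio of 1.14. Of these, Npm1, a nucleolar chaperone that is also in the TOP list, was at 13.4 (SD 8.92) and 31.4 (SD 9.18), and Fbl, the rRNA methyltransferase, at 1.35 (SD 1.49) and 3.97 (SD 1.80). Among 15 genes used, from a list of 16 regulators that runs from Larp1 and Mtor to Myc, 11 were higher, with a median of 0.19. Larp4 (log2 ratio 1.70) and Pdcd4 (1.15) differed by more than both SDs, and Larp1 (1.11) and Mtor (-0.91) did not. Of 9 genes listed for the p53 and 5S particle route, 7 were used, without Cdkn1a and Ccng1. All 7 were higher, against 52.4% of all genes, with a median of 0.54, but only Rrs1 by more than both SDs. Rrs1 and Bop1 are also in the biogenesis list, so the counts of these lists are not separate. Mdm2 was at 0.20 (SD 0.32) and 0.56 (SD 0.44) reads per 10000. These lists were chosen with earlier results known and are counts only.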

How the data were processed

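Per the submitters' processing notes, minimap2 2.18-r1015, Salmon 1.1.0 and build mm10 were used; no annotation release or setting is named there. The authors deposited 1 table per cell with a signal per transcript, its reads per 10000 reads of that cell, for 52927 transcripts. Dividing by the lowest nonzero value of a cell gave whole numbers for 100% of values (tolerance 0.01 of a read), which recovers reads and depth. 52799 transcripts matched GENCODE M21 (GRCm38, the same build), and the other 128 were left out of gene and isoform values. Gene values are sums over transcripts.

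Cells were grouped by their titles. The numbers in the titles name cells. Group means, SDs between cells and log2 ratios of means with 0.1 added were computed for genes with a mean of at least 0.1; with no animals named there was no count test. Exact Clopper-Pearson intervals are 95%. Isoform shares used cells with at least 20 reads of a gene, in at least 10 cells of each group. Copies were found with blastn 2.17.0 on coding sequences. The steps were tested on simulated data. Software was matplotlib 3.10.9, scipy 1.17.1, pandas 2.3.3, numpy 2.4.6 and python 3.11.15.

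Genes named were, among members, the 6 highest and 6 lowest levels, the 8 highest and 8 lowest log2 ratios, the 6 highest and 6 lowest pool share ratios, all past 1.5-fold, the paralogs, and for isoforms Rps24 and the 10 largest differences; others were named for their function, their copies or their spread after their values were seen. The members and lists were chosen with earlier results of these data known. Some results that this rule names are not reported here.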

Additional observations from a re-analysis of the deposited data

How the results depend on the processing

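Across 81 results, 682 of 705 alternative values stayed within set limits and 23 did not. The limit was 1.5 times for counts, a fixed step for correlations, a binomial interval for the promoter share and a spread, mostly between cells, for other values. All 563 alternatives for single members were among the 682. Their limit, the SD between cells, is wide, so this count says little about how firm a ratio is. Rpl5, at 0.71 alone and 0.01 with copies, stayed within it, and some small ratios changed sign. The difference in member share ran from 244 to 422 reads per 10000 and that in the log2 ratio of large to small subunit from 0.04 to 0.10. Median-of-ratios factors gave 35 members higher in HEC (72 in the main analysis), 3 and 4 members at least 1.5-fold higher and lower (16 and 1), 4 beyond both SDs (14) and a median log2 ratio of -0.075, which turns its sign (0.27). Mean log2 differences gave 25 members 1.5-fold higher and 0 lower; pooled reads and added copies gave 0 lower, and thinning to 10000 reads gave 2. Leaving out 1 cell gave 0 to 1 lower and 12 to 22 beyond both SDs, and leaving out AEC 22, 23 and 24 gave 31. Isoform differences beyond both SDs (4) were 2 with coding transcripts alone, 1 with coding ends merged and 8 without the shallow cells; those of 10 points (4) were 0 with coding ends merged. The relation with length (r 0.39, rho 0.41) was 0.13 and 0.22 with the longest transcript and 0.26 and 0.23 without AEC 22, 23 and 24. The promoter run (48.3%) was 83.3% in the wider window and 20% with C at the start required. The cause of these changes was not tested. Leaving out AEC 22 to 24, adding copies, nuclear coding reads as the base, coding length, the C at the start and the first-intron grouping were chosen after seeing the data. No paired analysis was possible because the numbers shared by AEC and HEC cells only name cells and no test was run. Depth limits the shallow cells most: there 1 read is worth more, and low members such as Rpl7l1 are listed at 0.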
